A study of Caenorhabditis elegans with 2 samples.

Results

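The proteasome subunit genes of Caenorhabditis elegans were examined for binding of UNC-62 in L1 larvae. UNC-62 is a transcription factor with a homeodomain, related to Meis proteins. The genes were chosen by name alone: protein-coding genes whose symbol starts with pas-, pbs-, rpn- or rpt-, which gave 33 of the 19973 nuclear protein-coding genes of the annotation. They comprised 14 genes of the core particle (7 pas and 7 pbs) and 19 genes of the cap (13 rpn and 6 rpt). The assay was ChIP-seq, in which chromatin fragments bound by the protein are pulled down and their DNA is sequenced. The animals were whole L1 larvae of strain OP600, of pooled sex and unknown age. They carried the mutation unc119(ed3) and the transgene wgIs600, which supplies unc-62 fused to TY1, EGFP and FLAG together with unc119. There was 1 group with 2 biological replicates, so no comparison between conditions was possible. The signal is an average over all cells of the animal. One label gives the antibody's target as unc-62 and another names the eGFP-tagged protein, so whether untagged UNC-62 was also recovered is not known.

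The proteasome is the barrel-shaped protease that degrades proteins marked with ubiquitin. Its core is built of outer rings of alpha subunits (pas genes), which form a gate, and inner rings of beta subunits (pbs genes), which carry the proteolytic sites. The cap binds the core at its ends, where the rpt subunits form a ring of ATPases that unfolds substrates and the rpn subunits bind ubiquitin, remove it or hold the cap together. Proteasomes work in most cells of the animal, and in C. elegans the transcription factor SKN-1 raises expression of many proteasome genes when the proteasome is impaired.

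For each gene the strongest entry of the deposited pooled peak list with a summit within 1 kb of the gene's 5′ end was taken. An entry is 1 interval of the list, and its signal value is the authors' own measure of enrichment, on a scale that the sources do not state. The pooled list holds 30000 entries with signals from 9.05 to 128 and a median of 11.9, and each replicate list also holds 30000. Lists of fixed length reach down to weak entries, so a listed entry is not in itself evidence of binding. The thresholded list, which the authors cut by a test of reproducibility between replicates (IDR), holds exactly the 119 strongest pooled entries, with signals of 35.0 and more. A gene without a thresholded entry therefore had no pooled entry of that strength within 1 kb. Read depth is unknown, because the lists hold no counts.

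UNC-62 signal was uneven between proteasome genes. None of the 33 genes had a thresholded entry within 1 kb, against 0.546% of all protein-coding genes. A pooled entry of any strength lay within 1 kb of 18 of the 33 genes (54.5%), against 49.1% of all protein-coding genes, so the share was near the background. The strongest 1000 entries reached 3 proteasome genes (9.09%), namely pas-4, rpt-6 and pbs-1, against 3.01% of all genes. The strongest 3000 entries, a limit chosen with the values known, reached 9 proteasome genes (27.3%), against 7.63% of all genes. In either replicate alone the strongest 3000 reached 5 proteasome genes (15.2%), against 6.86% of all genes in replicate 1 and 7.61% in replicate 2. None of the genes had its strongest entry between rank 2613, that of rpn-1, and rank 6366, that of rpn-6.1. These shares describe the lists and were not tested.

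**Figure D1:**
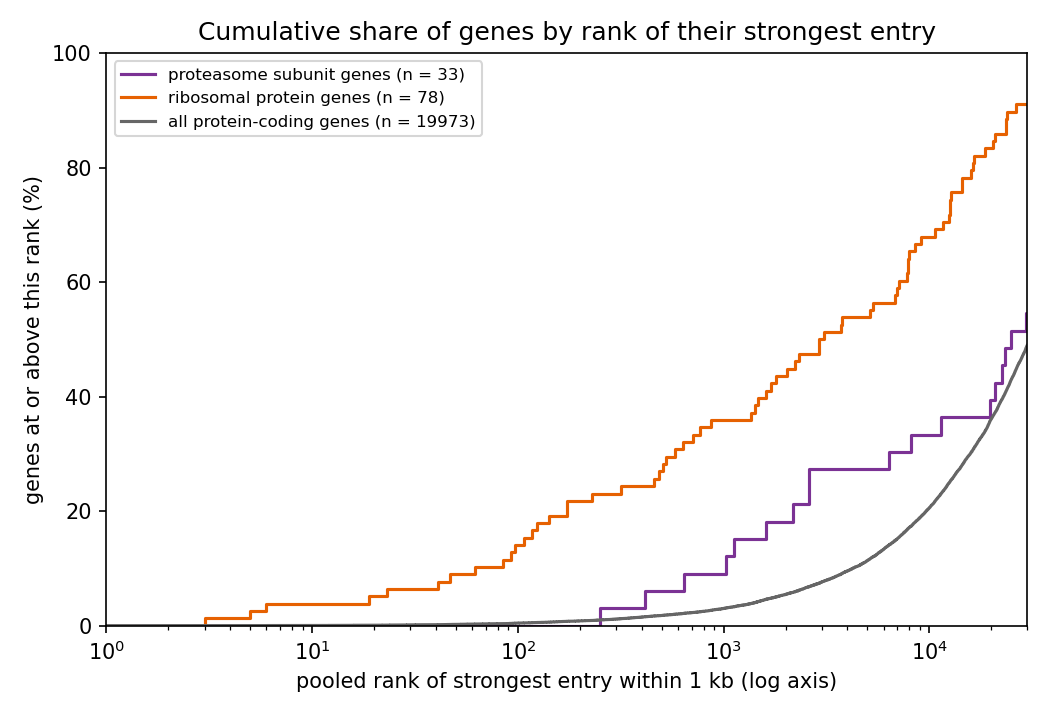
Cumulative share of genes (y axis, percent of all genes of the set) whose strongest pooled entry within 1 kb has at least the rank on the x axis (log axis, 1 is the strongest entry), for proteasome subunit genes, ribosomal protein genes and all protein-coding genes. The proteasome curve starts at rank 252, reaches 27.3% at rank 3000 (15.2% in either replicate alone, not drawn) and ends at 54.5%, while the curve of all genes ends at 49.1%.

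Ribosomal protein genes and cytosolic chaperonin genes, which also encode subunits of large housekeeping complexes, were set beside them. Of the proteasome genes, 18 of 33 had a pooled entry, 9 had one among the strongest 3000 and 0 had a thresholded one. Of 78 ribosomal protein genes, 71 (91.0%) had a pooled entry, 39 (50%) had one among the strongest 3000 and 13 a thresholded one. Of 8 cct genes, 7 had a pooled entry, 2 had one among the strongest 3000 and 2 a thresholded one. The differences between these complexes were not tested.

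Among the alpha-ring genes, pas-4 carried the highest pooled signal of all proteasome genes. Its entry (ce11, chromosome I, 8728416 to 8728751) had a pooled signal of 28.4 and rank 252. At this summit replicate 1 had a signal of 7.48 and rank 12636, and replicate 2 had a signal of 17.2 and rank 402. The summit lay 97 bp upstream of pas-4 (WBGene00003925), in intergenic sequence, and 180 bp from the 5′ end of rpb-3, an RNA polymerase II subunit gene on the other strand. The site was thus strong in replicate 2 and weak in replicate 1.

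The pas-1 entry (chromosome V, 14422537 to 14422872) had a pooled signal of 18.5 and rank 2170. Its signal was 12.5 at rank 1104 in replicate 1 and 6.41 at rank 20453 in replicate 2, the reverse of pas-4. The summit lay 87 bp upstream, in the 106 bp between pas-1 (WBGene00003922) and rpoa-12, an RNA polymerase I subunit gene upstream on the same strand. The third alpha-ring gene with an entry, pas-6, had a pooled signal of 10.8 with a summit 6 bp inside the 5′ end. It was listed in replicate 1 alone, with a signal of 9.26 at the summit. The genes pas-2, pas-3, pas-5 and pas-7 had no pooled entry.

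Among the beta-ring genes, pbs-1 had the highest pooled signal, 23.01 at rank 641. Its entry (chromosome IV, 1710460 to 1710795) had a signal of 14.9 at rank 346 in replicate 1 and 8.75 at rank 8027 in replicate 2. The summit lay 883 bp upstream of pbs-1 (WBGene00003947), in a coding exon of K08D12.3, whose own 5′ end was 363 bp away. In replicate 2 the strongest entry near pbs-1 was another one, 301 bp upstream, with a signal of 11.9 and rank 2027. This was the 1 proteasome gene with an entry among the strongest 3000 of both replicates, at different positions.

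The other beta-ring entries were weak. At pbs-7 (WBGene00003953, chromosome I, 8695403 to 8695738) the pooled signal was 12.9 at rank 11376, with 8.84 in replicate 1 and no entry at the summit in replicate 2. That summit lay 730 bp inside pbs-7 in a coding exon and 297 bp from the 5′ end of K07A12.5. At pbs-6 and pbs-2 the pooled signals were 9.84 and 9.09, close to the lowest value of the list. The genes pbs-3, pbs-4 and pbs-5 had no pooled entry, and pbs-5, which encodes a proteolytic subunit, had none in any list.

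**Figure D2:**
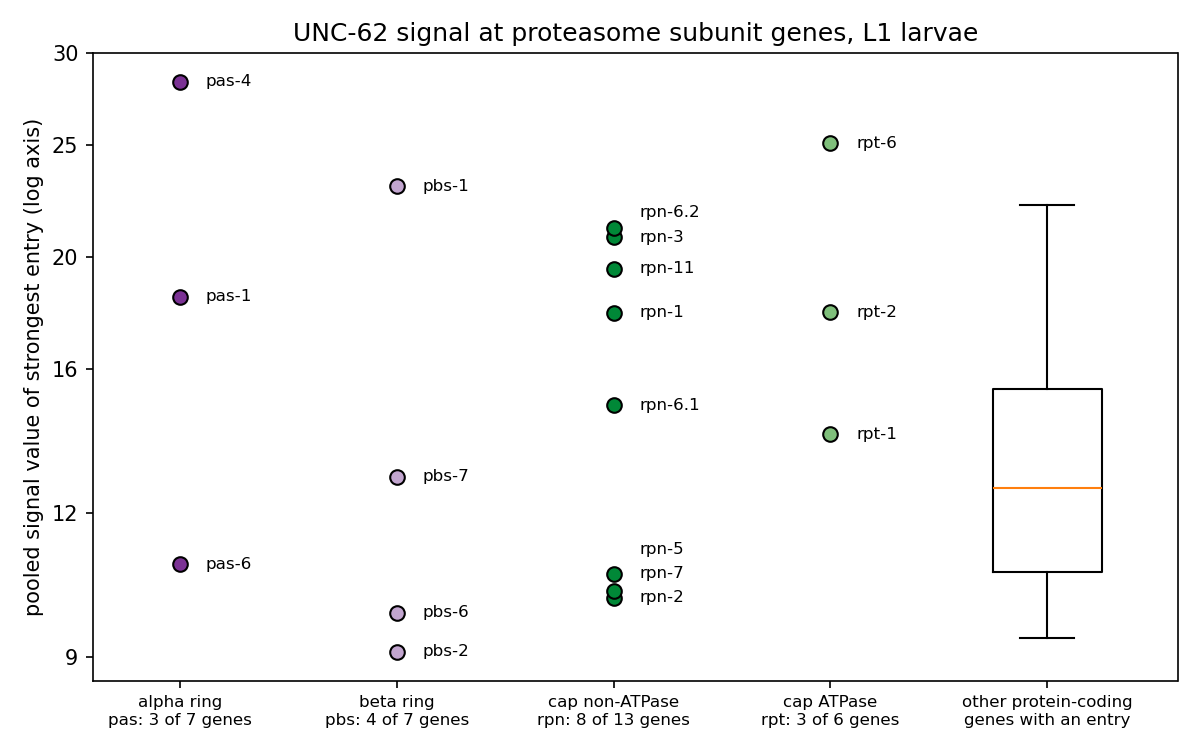
Pooled signal value of the strongest entry within 1 kb (y axis, log scale) for each proteasome subunit gene with an entry, by subunit class, beside the other protein-coding genes with an entry (box, quartiles and median; whiskers, outer percentiles that leave 5% of genes beyond each end). Each point is 1 gene, and the values run from 9.09 at pbs-2 to 28.4 at pas-4, against a median of 12.6 in the other genes.

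The cap ATPase gene rpt-6 (WBGene00004506) had the site that ranked highest in a single replicate. Its entry (chromosome III, 12369881 to 12370216) had a pooled signal of 25.1 and rank 416. Replicate 1 had a signal of 22.5 there and rank 20, while replicate 2 had a signal of 7.90 and rank 11361. The summit lay 407 bp upstream of rpt-6 in intergenic sequence, 999 bp from his-72, a histone gene on the other strand. Both replicates placed their summit 408 bp upstream, so they differed in strength and not in place.

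The other rpt entries had like signals in both replicates. At rpt-2 (WBGene00004502, chromosome V, 6018231 to 6018566) the pooled signal was 17.9 at rank 2599, with 8.28 in replicate 1 and 9.09 in replicate 2. Its summit lay 730 bp upstream in an intron of aps-1, an adaptor-complex subunit gene whose 5′ end was nearer, at 429 bp. At rpt-1 (WBGene00004501, chromosome V, 11982445 to 11982780) the pooled signal was 14.04 at rank 8174, with 8.25 in replicate 1 and 8.56 in replicate 2. Its summit lay 216 bp upstream in intergenic sequence. The genes rpt-3, rpt-4 and rpt-5 had no pooled entry.

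In rpn, the largest of the 4 classes, 8 of 13 genes (61.5%) had a pooled entry, against 49.1% of all genes. Among the strongest 3000 were 4 of them (30.8%), against 7.63% of all genes. At rpn-3 (WBGene00004460), a subunit of the lid of the cap, the entry (chromosome III, 8447024 to 8447359) had a pooled signal of 20.8 and rank 1128. Replicate 2 had a signal of 18.5 at rank 326 there, and replicate 1 listed no entry at the summit. The summit lay 161 bp upstream, in the 443 bp between rpn-3 and hsp-110, a chaperone gene on the other strand. At rpn-11 (WBGene00004467), which encodes the deubiquitinating enzyme of the lid, the entry (chromosome II, 4044356 to 4044691) had a pooled signal of 19.5 and rank 1607. Replicate 2 had a signal of 18.4 at rank 327, and replicate 1 listed no entry at the summit. This summit lay 22 bp inside the gene, in its 5′ UTR. At both of these lid genes, replicate 2 alone listed an entry at the pooled summit.

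The paralogs rpn-6.1 and rpn-6.2, of which rpn-6.1 encodes a lid subunit that braces cap and core, were listed more strongly in opposite replicates. At rpn-6.2 (WBGene00010309, chromosome III, 9000860 to 9001195) the pooled signal was 21.2 at rank 1032, with 5.27 in replicate 1 and 13.1 in replicate 2. That summit lay 971 bp inside the gene in a coding exon, close to the 1 kb limit. At rpn-6.1 (WBGene00004462, chromosome III, 6961444 to 6961779) the pooled signal was 14.9 at rank 6366, with 11.5 at rank 1913 in replicate 1 and no entry at the summit in replicate 2. That summit lay 389 bp inside the gene in an intron. Every 31-base word of both intervals, as of the other 16, occurred once in the genome.

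At rpn-1 (WBGene00004458), a scaffold of the cap base that also binds ubiquitin, the pooled signal was 17.9 at rank 2613 (chromosome IV, 6909657 to 6909992), with 5.56 in replicate 1 and 10.2 in replicate 2. Its summit lay 88 bp inside the gene in a coding exon. The second large base subunit, rpn-2, had a low pooled signal of 10.1 at rank 23313, although replicate 1 alone had 14.7 at rank 370 and replicate 2 listed none. At rpn-5 and rpn-7, both lid genes, the pooled signals were 10.6 and 10.3, with 10.4 and 9.69 in replicate 2 and no entry in replicate 1. The ubiquitin receptor genes rpn-10 and rpn-13 and the genes rpn-8, rpn-9 and rpn-12 had no pooled entry.

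Sequence around the summit, 100 bp to each side, is shown for 4 sites that held no annotated UTR: rpt-6, the site of highest rank in replicate 1, rpn-3, that of highest rank in replicate 2 among the genes shown, pbs-1, listed at the summit in both replicates, and rpt-2, where both replicates were alike. The sequences are from the RefSeq assembly WBcel235, 5′ to 3′ on the strand of the proteasome gene, at chrIII:12369949-12370149 (plus), chrIII:8447092-8447292 (plus), chrIV:1710528-1710728 (minus) and chrV:6018299-6018499 (minus). Capitals mark matches to any of the 7 motifs searched.
rpt-6: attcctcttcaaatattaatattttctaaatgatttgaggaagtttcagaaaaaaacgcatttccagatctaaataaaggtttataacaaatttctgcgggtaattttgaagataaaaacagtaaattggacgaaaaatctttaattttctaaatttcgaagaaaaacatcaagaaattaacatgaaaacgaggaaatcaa
rpn-3: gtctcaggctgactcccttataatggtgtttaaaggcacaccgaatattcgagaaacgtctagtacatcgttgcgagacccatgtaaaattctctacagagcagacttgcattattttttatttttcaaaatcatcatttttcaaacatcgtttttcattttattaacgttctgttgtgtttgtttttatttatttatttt
pbs-1: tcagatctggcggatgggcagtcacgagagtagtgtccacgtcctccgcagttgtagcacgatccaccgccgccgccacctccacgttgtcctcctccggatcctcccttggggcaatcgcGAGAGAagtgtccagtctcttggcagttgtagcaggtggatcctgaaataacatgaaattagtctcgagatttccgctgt
rpt-2: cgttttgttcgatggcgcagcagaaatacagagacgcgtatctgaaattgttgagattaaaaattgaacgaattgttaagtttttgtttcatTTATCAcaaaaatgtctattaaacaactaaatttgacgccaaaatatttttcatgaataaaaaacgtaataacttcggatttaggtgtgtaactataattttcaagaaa
The rpt-6 and rpn-3 windows held no match to any of the 7 motifs. The pbs-1 window held 1 GAGAGA and the rpt-2 window 1 TTATCA, the other strand of TGATAA. The GC content was 25.4% at rpt-6, 31.8% at rpn-3, 56.2% at pbs-1 and 28.9% at rpt-2. The pbs-1 and rpt-2 windows both overlap coding sequence, and the pbs-1 summit itself lies in a coding exon. The median over all proteasome windows was 34.6%, against 33.3% over the windows of other genes.

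Matches on either strand were counted in the windows of 100 bp to each side of the 18 summits and set beside the windows of the 9781 other genes with an entry. The Meis hexamer TGACAG was in 1 proteasome window, that of pbs-2, or 5.56%, against 6.56% of other windows. The hexamers TGTCAT or TATCAT, which hold the core bound by SKN-1, were in 3 windows (rpn-11, pbs-2 and rpn-2), or 16.7%, against 20.8%. GACGCA was in 2 windows (pbs-7 and rpn-2) against 5.51%, GCGCGA in 1 (rpn-11) against 2.80%, GAGAGA in 1 (pbs-1) against 11.8%, the GATA factor hexamer TGATAA in 3 (rpt-2, rpn-7 and rpn-6.1) against 19.2%, and the FOXO heptamer GTAAACA in 0 against 2.80%. In the promoters of all 33 genes, from 250 bp before to 50 bp after the 5′ end, TGTCAT or TATCAT was in 15 (45.5%), against 32.3% of other promoters, and TGACAG in 4 (12.1%), against 9.68%. GCGCGA was in 3 promoters (9.09%), against 4.38%, and TGATAA in 10 (30.3%), against 30.2%. Lower shares than in other promoters were found for GACGCA, in 1 (3.03%) against 8.79%, GAGAGA, in 6 (18.2%) against 21.8%, and GTAAACA, in 1 (3.03%) against 4.77%. TGTCAT can share bases with TGACAG on the opposite strand, and TATCAT with TGATAA, so 1 stretch can count for 2 motifs. A match is not a bound site, and these counts were not tested.

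The next comparison asked whether the replicates listed the same proteasome genes. Replicate 1 had an entry within 1 kb of 21 of the 33 genes (63.6%), against 49.0% of all genes, and replicate 2 of 22 (66.7%), against 49.6%. Both replicates had an entry near 14 genes (42.4%), against 28.2% of all genes. No list had an entry near 4 genes, pas-2, pas-3, pbs-5 and rpt-4 (12.1%), against 27.0% of all genes.

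The strong entries of the replicates fell mostly at different genes, among proteasome genes as among all genes. Among the strongest 3000 of replicate 1 were those of rpt-6, pbs-1, rpn-2, pas-1 and rpn-6.1, 5 of 33 (15.2%), against 6.86% of all genes. Among the strongest 3000 of replicate 2 were those of pas-4, rpn-3, rpn-11, rpn-6.2 and pbs-1, again 5 of 33 (15.2%), against 7.61%. Only pbs-1 was in both sets (3.03%), against 1.59% of all genes. In at least 1 replicate, 9 genes (27.3%) had such an entry, against 12.8% of other genes. Over all genes, 318 of the 1370 with such an entry in replicate 1 also had one in replicate 2, so a small overlap was general. At the pooled summit itself, 8 of the 18 genes with a pooled entry (44.4%) were listed in both replicates. A further 5 (27.8%) were listed in replicate 1 only, 5 (27.8%) in replicate 2 only and 0 in neither. Among other genes with a pooled entry 26.9% were listed in both, 28.5% in replicate 1 only, 33.1% in replicate 2 only and 11.5% in neither. With 2 replicates of unknown depth, a difference between them at 1 gene cannot be told apart from the spread between libraries.

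**Figure D3:**
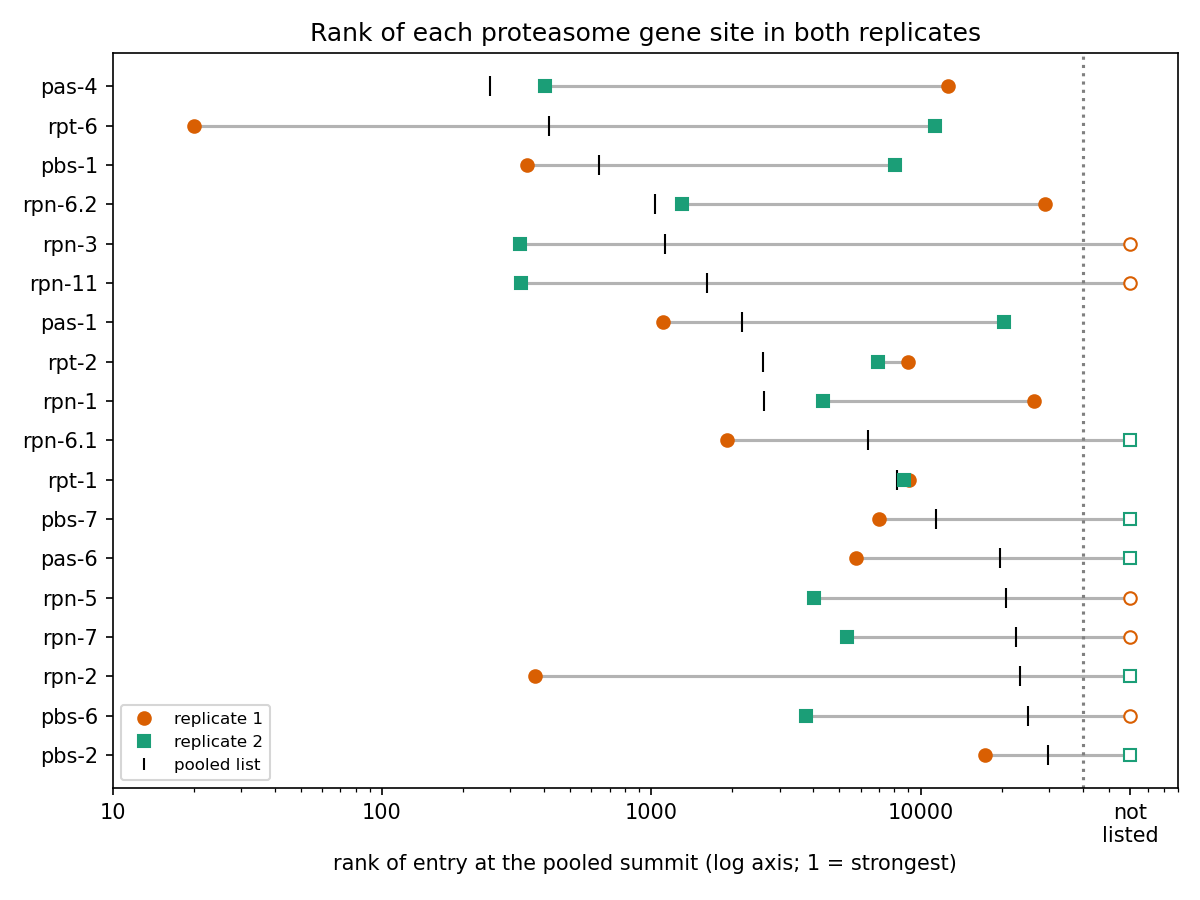
Rank (x axis, log scale, 1 is the strongest entry) of the entry at each pooled summit in replicate 1 (circles), replicate 2 (squares) and the pooled list (bars), for the 18 proteasome genes with a pooled entry, ordered by pooled signal (y axis). Open symbols right of the dotted line mark replicates with no entry at the summit. At rpt-6 the ranks were 20 and 11361, and at rpt-1 they were 9090 and 8716.

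Core and cap genes were compared. A pooled entry lay near 7 of 14 core genes (50%) and 11 of 19 cap genes (57.9%), against 49.1% of all genes. The median pooled signal was 12.9 over the core genes with an entry and 17.9 over such cap genes, a difference of -4.99. In replicate 2 the medians were 6.81 in core genes and 9.09 in cap genes, but in replicate 1 the order was opposite, 8.84 in core genes and 7.72 in cap genes. Within 2 kb the pooled difference was 0.76, also of the opposite sign. No difference between core and cap held across the replicates. By class, 2 of 7 pas, 1 of 7 pbs, 4 of 13 rpn and 2 of 6 rpt genes had an entry among the strongest 3000. Of all genes, 7.63% had one.

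Over the proteasome genes with an entry, the median pooled signal was 16.4, with quartiles of 10.7 and 20.5. Over the other genes with an entry it was 12.6, with quartiles of 10.7 and 15.4. Both medians leave out the genes below the floor of the list, so they do not describe all 33 genes. The median was 3.76 higher in proteasome genes in the pooled list, 1.12 higher in replicate 2 and 0.42 higher in replicate 1. These differences are on each list's own scale, with medians over all entries of 11.9, 7.22 and 7.05. They cover 18, 22 and 21 proteasome genes, so their sizes cannot be compared directly. Genes with several entries can take the strongest of them, and 6 of the 18 proteasome genes (33.3%) had more than 1, against 26.1% of other genes. Among genes with exactly 1 entry the median was 11.9 in 12 proteasome genes and 11.99 in the others, a difference of -0.12. That restriction leaves out pbs-1, rpn-6.2, rpn-3, pas-1, rpn-1 and rpn-6.1, so it describes a different set of genes. Whether having several entries accounts for the higher median was not tested.

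By the pooled median, summits lay closer to the 5′ end in proteasome genes than in all genes, but not in every class. The median distance was 237.5 bp, against 444 bp over all genes with an entry. It was 87 bp in pas, 494.5 bp in pbs, 259.5 bp in rpn and 407 bp in rpt genes. Within 200 bp lay 8 of 18 summits (44.4%), against 23.8% of those of other genes. Those 8 included pas-6, rpn-5 and pbs-2, with pooled signals of 10.8, 10.6 and 9.09, below the list median of 11.9. In the replicate 1 list the median distance was 408 bp, against 464 bp over all genes. Upstream of the 5′ end lay 12 of 18 summits (66.7%), against 58.2% of those of other genes. Intergenic sequence held 9 summits (50%), against 45.8% of those of other genes, and coding exons 4 (22.2%), against 19.5%. Introns held 3 (16.7%), against 26.4%, and 5′ UTRs 2 (11.1%), against 4.16%. For 13 of 18 (72.2%) the proteasome gene's 5′ end was the nearest of any protein-coding gene, against 85.7% of other genes. The 15 genes without an entry had their nearest pooled summit between 1072 bp (pas-5, signal 16.7) and 3008 bp (rpn-13, signal 21.1) from the 5′ end. Just inside the limit were rpn-6.2 at 971 bp and pbs-1 at 883 bp.

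**Figure D4:**
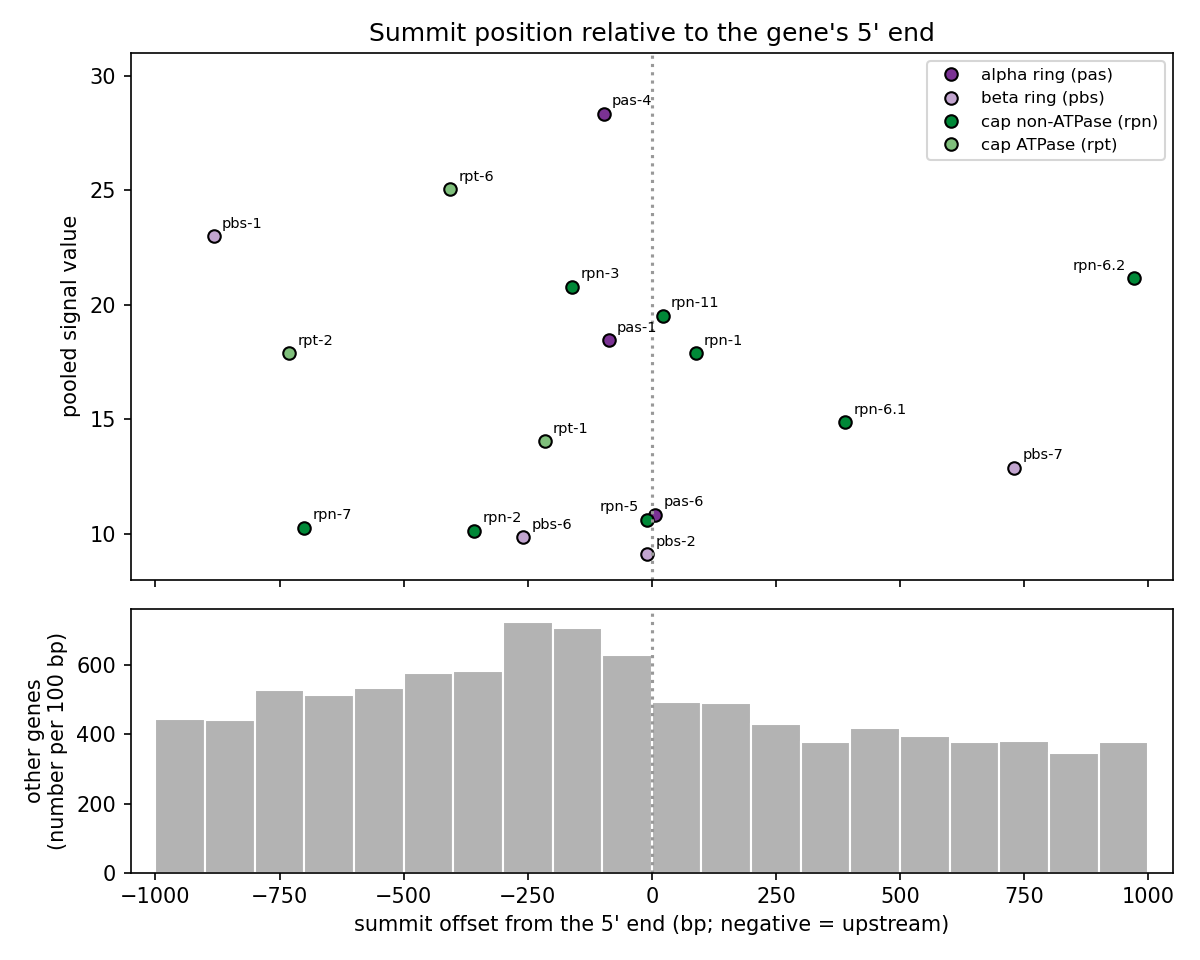
Upper panel, pooled signal value (y axis) against the summit's offset from the gene's 5′ end (x axis, bp, negative is upstream) for the 18 proteasome genes with an entry, coloured by subunit class. Lower panel, number of other genes per 100 bp of offset. Of the 18 proteasome summits 12 lie upstream. Within 100 bp of the 5′ end lie those of pas-4, rpn-11, pas-1 and rpn-1, and the weaker ones of pas-6, rpn-5 and pbs-2.

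The arrangement of the genes bears on which gene a summit can be assigned to, and it was counted after the positions were seen. Of the 33 proteasome genes, 21 had an upstream neighbour on the opposite strand within 2 kb, a head-to-head pair, against 4990 of all 19973 genes. Of these 21 genes, 14 (66.7%) had a pooled entry, against 52.8% of all such genes, and 6 (28.6%) had one among the strongest 3000, against 11.2%. The neighbours included rpb-3 at pas-4, hsp-110 at rpn-3, the cohesin gene scc-1 at rpn-5, the ribosome biogenesis gene eif-6 at pbs-2 and rad-23, which encodes a shuttle for ubiquitinated proteins, at rpn-12. A further 8 genes lay less than 500 bp downstream of a neighbour on the same strand, a spacing found in operons. Of these, pas-1, rpn-11 and rpn-6.2 (37.5%) had a pooled entry, against 47.6% of all genes so placed. The same 3 (37.5%) had it among the strongest 3000, against 6.39% of all genes so placed. A summit between a pair of genes cannot be assigned to either from these lists.

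Other genes of the ubiquitin pathway were counted from a list of 40 names, of which 39 were matched. The list was drawn up by name with the first rank of cdc-48.1 already known. Shares that count cdc-48.1 are therefore not independent observations. A pooled entry lay near 24 of the 39 (61.5%), against 49.1% of all genes. Of the 39, 4 (10.3%) were among the strongest 1000, against 3.01%, and 7 (17.9%) among the strongest 3000, against 7.63%. The count of 4 became 7 without replicate 1 and 1 with summits within 500 bp. The strongest was cdc-48.1, which encodes an ATPase that extracts ubiquitinated proteins, with a signal of 128 at rank 1. It was the 1 gene of the 39 with a thresholded entry, against 0.546% of all protein-coding genes. The ubiquitin-conjugating enzyme gene let-70 followed with a pooled signal of 32.9 at rank 148, with 18.7 at rank 60 in replicate 1 and 25.5 at rank 96 in replicate 2. The ubiquilin gene ubql-1 had a pooled signal of 28.7 at rank 241, with 11.8 in replicate 1 and 16.9 in replicate 2. The ubiquitin ligase gene eel-1 had a pooled signal of 21.4 at rank 976, with 11.97 in replicate 1 and 10.2 in replicate 2 at its summit. The sites of cdc-48.1 and let-70 ranked among the strongest 100 in both replicates, which no proteasome gene did. The regulator skn-1 had a pooled signal of 15.1 at rank 6004, and the genes ddi-1 and png-1, whose products process SKN-1, had no entry in any list.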

How the data were processed

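Peak lists of build ce11 were used as deposited: 1 list per replicate, 1 called on the pooled replicates, and 1 thresholded by IDR. Column 7 is the signal value and column 9 the −log10 q-value that the authors deposited. Per the notes deposited with the lists, the replicate and pooled lists were derived from the alignments and 1 further file that also served the control-normalised signal, and the thresholded list from the other 3. The peak caller is not given in the sources used here, nor are its settings. The ce10 lists and any control libraries were not analysed here. Read depth is unknown.

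Entries of the replicate 1 list are 370 bp wide and all others 336 bp, and the summit is the middle base. Genes came from Ensembl release 115, and sequence from the RefSeq copy of the same assembly, WBcel235. Entries were ranked by signal within each list. A replicate value at a site is the strongest replicate entry whose interval holds the pooled summit. The lowest signal listed was 5.17 in replicate 1 and 5.33 in replicate 2.

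The members, gene list, motifs and limits were chosen with earlier results of these data known. All members were accounted for, with full values for the 12 of highest pooled signal and for pathway genes among the strongest 1000. No test was made: 1 group with 2 replicates allows none, and genes are not replicates. The search for the strongest entry was tested on simulated data. Calculations used Python 3.11.15, numpy 2.4.6, pandas 2.3.3 and matplotlib 3.10.9.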

Additional observations from a re-analysis of the deposited data

How the results depend on the processing

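Of 87 alternatives, 40 left a count within 1.5 times, or a value within the spread between replicates, and 47 did not; 22 were added after seeing the data. Genes with a pooled entry numbered 28 within 2 kb, against 69.3% of all genes. In place of the strongest 1000, the thresholded list reached 0 proteasome genes, against 0.546% of all genes. The strongest 3000 and the strongest 5000 each reached 9, against 7.63% and 11.4% of all genes. The strongest 3000 reached 5 without replicate 1, against 7.61% of all genes, and 5 without replicate 2, against 6.86%. With 1 replicate left out, the median signal ranged from 7.85 to 8.81, on the replicates' own scale, the median distance from 243.5 to 408 bp, the core minus cap difference from -2.28 to 1.12, the difference from other genes from 0.42 to 1.12, and pathway genes among the strongest 1000 from 4 to 7. The median signal was 14.04 within 500 bp, 14.4 within 2 kb, 14.9 with transcript 5′ ends, 17.9 with the single nearest gene and 13.9 with upstream summits. The difference from other genes was, in that order, 1.61, 1.34, 2.14, 5.38 and 1.31, and -0.12 among genes with 1 entry. The median distance was 806.5 bp within 2 kb and 97 bp with the nearest gene. Core minus cap was 0.76 within 2 kb. Genes listed in both replicates numbered 25 within 2 kb, against 52.8% of all genes, and 8 with upstream summits, against 13.6%, and pathway genes among the strongest 1000 numbered 1 within 500 bp. Motif counts within 50 bp, over the full width of the entry and in promoters were 0, 3 and 4 for TGACAG, 1, 7 and 15 for TGTCAT or TATCAT, 1, 3 and 1 for GACGCA, 1, 1 and 3 for GCGCGA, 1, 4 and 6 for GAGAGA, 1, 7 and 10 for TGATAA, and 0, 1 and 1 for GTAAACA. The shares of other windows, in the same order of motifs, were 3.34%, 11.3%, 2.82%, 1.43%, 5.75%, 10.5%, 1.28% within 50 bp and 10.7%, 33.2%, 8.7%, 4.58%, 18.5%, 30.5%, 4.57% over the full width; those of promoters are given with the promoter counts. Windows of other length hold other numbers of bases; the other causes were not tested. No paired analysis was possible because there is 1 group. Entries in both lists have no value with a replicate left out.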

Other observations

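Chromosome X held 0 of the 33 proteasome genes and 2731 of the 19973 protein-coding genes, so the genes' entries all lie on autosomes. Chromosome I held 10 proteasome genes, 3 of them with a pooled entry, against 51.9% of all its genes, and chromosome III held 8, 6 of them with an entry, against 56.5%. Chromosome III also held 3 of the 9 proteasome genes whose entry was among the strongest 3000 (rpt-6, rpn-6.2 and rpn-3), and 10.4% of all its genes had such an entry.

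The ranks of a site often differed between the pooled list and a replicate list, as the values of the 18 genes show. As examples chosen after the values were seen, the rpn-2 site ranked 370 in replicate 1 and 23313 in the pooled list. The pbs-6 site ranked 3767 in replicate 2 and 24984 in the pooled list. Neither site was listed in the other replicate.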
